A study of Bos taurus with 6 samples.

Results

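The genes described here carry the interleukin 6 (IL6) and leukemia inhibitory factor (LIF) signal: the receptor genes LIFR, IL6ST and IL6R, the kinase genes JAK1, JAK2 and TYK2, the transcription factor gene STAT3 and the inhibitor gene SOCS3. They were taken by symbol from a table of 15314 named genes, in which all 8 had a row. All 8 also averaged 10 scaled reads or more per library and so were among the 12070 genes tested. The signal starts when IL6 binds IL6R, or LIF binds LIFR, and the bound receptor joins with the shared chain IL6ST, also called gp130. Kinases of the JAK family, held on the inner side of the receptors, then phosphorylate the receptor tails and STAT3, which enters the nucleus and switches on genes that include SOCS3, whose protein blocks the receptor complex again. In mouse embryonic stem cells this route, driven by LIF, maintains self-renewal, and in cultured bovine embryos IL6 is known as a factor that acts on the inner cell mass.

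The 6 libraries hold polyadenylated RNA of bovine embryos made by in vitro fertilization and collected on day 6, at the late morula stage, in pools of 15. Embryos of the NOTCH1 knockdown had received small interfering RNA that targets NOTCH1, those of the RBPJ knockdown one that targets RBPJ, and those of the control a nonspecific one. Each of the 3 groups has 2 libraries. NOTCH1 is a receptor of the NOTCH pathway and RBPJ the DNA-binding protein through which NOTCH acts, so the comparisons ask whether transcripts of the IL6 and LIF route depend on either. All groups share the injection, and a knockdown lowers a transcript without removing it. A pool mixes the inner and outer cells of its embryos, so fewer cells of a type and less RNA per cell cannot be told apart.

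The targeted transcripts were as follows. RBPJ had scaled read counts of 121 and 94.5 in the RBPJ knockdown and of 447 and 391 in the control, and it fell by 1.96 on the log2 scale (limma, adjusted p = 0.00143). NOTCH1 had 48.0 and 49.5 in the NOTCH1 knockdown and 69.6 and 140 in the control, and its log2 fold change of -1.003 did not pass the threshold (limma, adjusted p = 0.634). Replicate 1 of the RBPJ knockdown was as low in NOTCH1, at 50.0, as the NOTCH1 knockdown libraries. Scaled totals ran from 10365695 to 10815554 per library, and 1 read was estimated to be worth 0.77 to 1.09 scaled counts. Of 16 genes listed as markers of the late morula, 15 were in the table and all 15 had a mean of at least 10, with POU5F1 at 10911 to 12942 and CDX2 at 624 to 976, and SOX2 was not analysed here.

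No difference between groups passed the test in any of the 8 genes. Over 3 comparisons and 8 genes, 0 of 24 tests passed an adjusted p of 0.05 (limma, adjusted over all 12070 genes), and the adjusted p values ran from 0.784 to 0.999. The background is just as low: 0% of all genes passed in the NOTCH1 knockdown against the control, 0.00829% in the RBPJ knockdown against the control and 0.00829% between the knockdowns, which in the last 2 cases was RBPJ itself. With the replicate number as a block, although the labels do not say that equal numbers belong together, these shares were 1.14%, 0.0994% and 0.124%, and again 0 of the 8 genes passed (limma). At an unadjusted p below 0.05 lay 0 of the 8 genes in the NOTCH1 knockdown, where the share of all genes was 7.29%. In the RBPJ knockdown it was 1 of the 8, STAT3, against a share of 4.34%, and between the knockdowns 0 of the 8, against 3.64%. The values are therefore given as levels and their spread, with intervals that say how large a difference the libraries still allow.

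**Figure D1:**
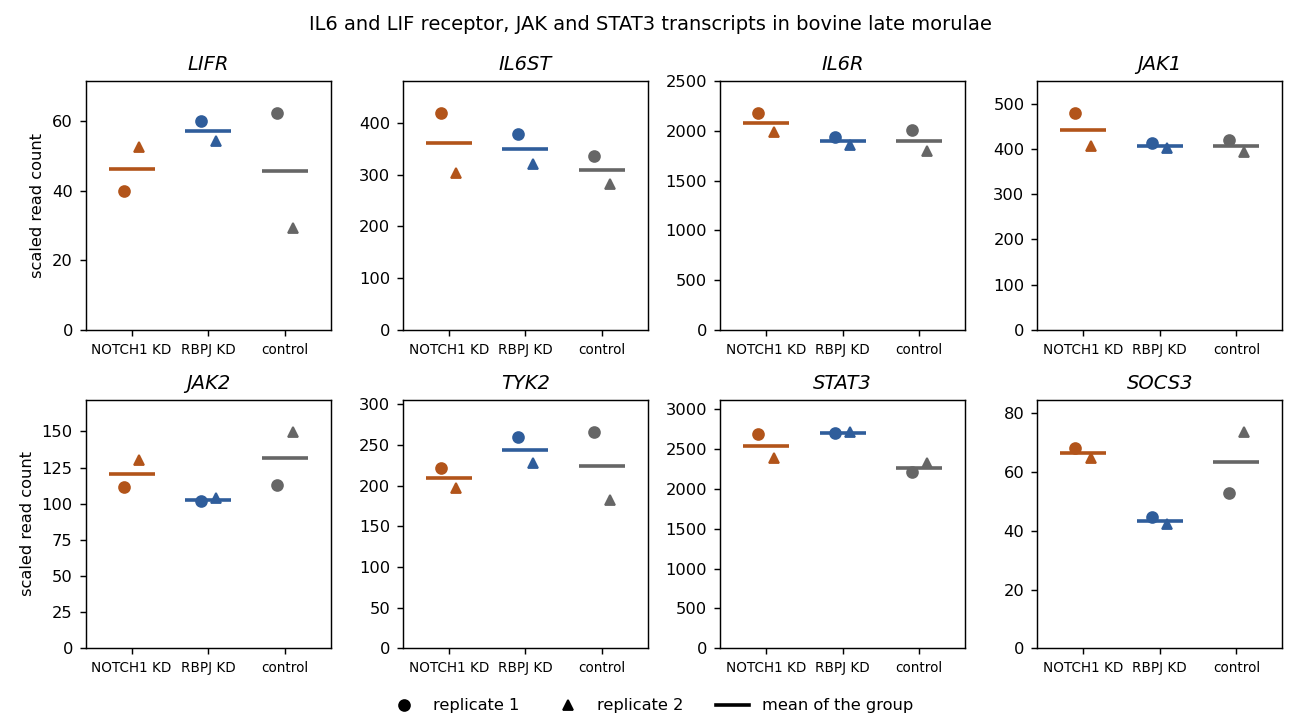
Scaled read counts (y axis, from 0) of the 8 genes in the NOTCH1 knockdown, the RBPJ knockdown and the control (x axis); circles are replicate 1, triangles replicate 2 and bars the mean of the 2 libraries. STAT3 and SOCS3 show tight RBPJ knockdown pairs outside the control range, at 2694 and 2710 against 2204 and 2326 for STAT3 and at 44.6 and 42.2 against 53.0 and 73.6 for SOCS3, while the LIFR control libraries span the whole range of that gene.

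Among the receptors, LIFR, the chain that binds LIF, was the least steady. It had 39.8 and 52.7 scaled counts in the NOTCH1 knockdown, 60.0 and 54.4 in the RBPJ knockdown, and 62.3 and 29.5 in the control. The control thus held both the highest and the lowest of the 6 libraries, a 2.11-fold difference between replicates, and both knockdown pairs lay inside it. The log2 fold change was 0.09 in the NOTCH1 knockdown (95% interval -0.72 to 0.90) and 0.40 in the RBPJ knockdown (95% interval -0.41 to 1.22). Without replicate 2 of the control these were -0.43 and -0.12, and the first was also below 0, at -0.10, without replicate 2 of the NOTCH1 knockdown. The NOTCH1 knockdown libraries lay below both RBPJ knockdown libraries, with a log2 difference of -0.31 (95% interval -1.12 to 0.50).

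IL6ST encodes the chain through which most cytokines of the IL6 family signal. Its scaled counts were 418 and 303 in the NOTCH1 knockdown, 379 and 321 in the RBPJ knockdown, and 337 and 283 in the control. Both knockdown means, at 360 ± 81.7 and 350 ± 40.9 (SD, n = 2 each), were above the control mean of 310 ± 38.2 (SD, n = 2), but the libraries of all 3 groups overlapped. Within each replicate number both knockdowns were above the control, as they were in STAT3. The labels do not say that equal numbers belong together, and the share of all genes with this order was not counted. With the replicate block the adjusted p was 0.611 in the NOTCH1 knockdown and 0.769 in the RBPJ knockdown (limma). The log2 fold change was 0.20 in the NOTCH1 knockdown (95% interval -0.20 to 0.61) and 0.18 in the RBPJ knockdown (95% interval -0.23 to 0.58). Without replicate 1 of the NOTCH1 knockdown the first was -0.029. A microRNA gene, MIR2359, and a pseudogene overlap the span of IL6ST in the annotation. Exons were not compared, and whether any reads counted for IL6ST come from either was not tested.

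IL6R, the chain that binds IL6, was steady across the libraries. It had 2174 and 1992 in the NOTCH1 knockdown, 1940 and 1860 in the RBPJ knockdown, and 2007 and 1796 in the control. The highest library exceeded the lowest by a factor of 1.21. The means of the RBPJ knockdown and the control were nearly equal, at 1900 ± 57.0 and 1902 ± 149 (SD, n = 2 each), and the 95% interval of that log2 difference ran from -0.23 to 0.24. The NOTCH1 knockdown averaged 2083 ± 129 (SD, n = 2), a log2 fold change of 0.13 against the control (95% interval -0.10 to 0.37), and its libraries lay above both RBPJ knockdown libraries.

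Among the kinases, JAK1, the JAK that IL6ST signalling depends on most, was as steady as IL6R. Its scaled counts were 478 and 406 in the NOTCH1 knockdown, 413 and 402 in the RBPJ knockdown, and 420 and 393 in the control. A single library, replicate 1 of the NOTCH1 knockdown, stood above the others, which lay between 393 and 420. The log2 fold change was 0.12 in the NOTCH1 knockdown (95% interval -0.20 to 0.43), which became -0.0020 without that library, and 0.0033 in the RBPJ knockdown (95% interval -0.31 to 0.32). JAK1 overlaps RAVER2, a protein-coding gene, in the annotation, and whether reads were counted by strand is not given in the sources used here.

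JAK2, the kinase that also serves the growth hormone and erythropoietin receptors, had 111 and 130 in the NOTCH1 knockdown, 102 and 104 in the RBPJ knockdown, and 113 and 150 in the control. Both RBPJ knockdown libraries lay below the other 4. Their mean was 103 ± 0.993 (SD, n = 2) against 131 ± 25.9 in the control (SD, n = 2), a log2 fold change of -0.33 (95% interval -0.83 to 0.16; limma, adjusted p = 0.983). Without replicate 2 of the control, the highest library, this value was -0.13. In the NOTCH1 knockdown the log2 fold change was -0.11 (95% interval -0.61 to 0.39), and it was 0.092 without replicate 2 of the control.

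TYK2, the JAK best known from type I interferon receptors, differed most of the 3 kinases between the control libraries. It had 222 and 197 in the NOTCH1 knockdown, 260 and 228 in the RBPJ knockdown, and 266 and 182 in the control. As with LIFR, the control held the highest and the lowest library, here 1.46-fold apart. The log2 fold change was -0.08 in the NOTCH1 knockdown (95% interval -0.52 to 0.37) and 0.14 in the RBPJ knockdown (95% interval -0.30 to 0.59). Both changed sign when a control library was left out, the first to 0.20 without replicate 1 and the second to -0.13 without replicate 2. The NOTCH1 knockdown libraries lay below both RBPJ knockdown libraries, with a log2 difference of -0.22 (95% interval -0.66 to 0.23).

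STAT3, the transcription factor at the end of the route, had the smallest unadjusted p of the 8 genes. Its scaled counts were 2685 and 2383 in the NOTCH1 knockdown, 2694 and 2710 in the RBPJ knockdown, and 2204 and 2326 in the control. All 4 knockdown libraries lay above both control libraries, and the RBPJ knockdown libraries lay above both NOTCH1 knockdown libraries. In the RBPJ knockdown the mean was 1.19 times that of the control, a log2 fold change of 0.26 ± 0.10 (SE; 95% interval 0.03 to 0.48). That interval leaves out 0, with an unadjusted p of 0.0302 in limma, but STAT3 ranked 306 of 12070 genes by p and its adjusted p was 0.983 (limma). In the NOTCH1 knockdown the log2 fold change was 0.16 ± 0.10 (SE; 95% interval -0.07 to 0.39; limma, adjusted p = 0.784). The 2 comparisons share the control libraries. Leaving out each library in turn gave 0.22 to 0.29 in the RBPJ knockdown and 0.07 to 0.25 in the NOTCH1 knockdown, where the lowest value was the one without its replicate 1. The sum of oocyte and maternal transcripts also lay apart in the knockdowns and the control, on the other side. Over 24 genes it was 3720 and 4034 in the NOTCH1 knockdown and 3909 and 4229 in the RBPJ knockdown. In the control it was 4586 and 4597. Abundant genes such as SPIN1 and CNOT7 carry much of that sum. SPIN1 itself went the other way, with means of 1431 and 1433 in the NOTCH1 and RBPJ knockdowns against 1355 in the control. Gene by gene, 20 of the 21 tested had a negative log2 fold change in the NOTCH1 knockdown (median -0.74), against 48.9% of all genes. In the RBPJ knockdown it was 19 of 21 (median -0.56), against 50.3%, with 0 passing in either (limma). Both libraries lay below the control pair in 10 and 8 of the 21, and above it in 0. Of all genes 17.2% and 16.8% lay below. RGS2 was kept for testing by its control mean of 26.9, with knockdown means of 5.34 and 8.10. H1FOO and ZAR1 had NOTCH1 knockdown means below 10, at 9.06 and 6.97, against 46.3 and 18.0 in the control. How far the filter sets these counts was not tested. Late morula markers, over 15 genes, summed to 84046 and 75586 in the NOTCH1 knockdown, 78384 and 65974 in the RBPJ knockdown, and 66375 and 67259 in the control. Abundant genes such as KRT8 and POU5F1 carry much of this sum too. Of the 15, 13 had a positive log2 fold change in the NOTCH1 knockdown (median 0.22) and 9 in the RBPJ knockdown (median 0.03), with 0 passing in either (limma). The part of either list in the STAT3 values was not tested.

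SOCS3, the feedback inhibitor that STAT3 itself induces, was the other gene whose groups stood further apart than its replicates. It had 68.3 and 64.7 in the NOTCH1 knockdown, 44.6 and 42.2 in the RBPJ knockdown, and 53.0 and 73.6 in the control. The RBPJ knockdown libraries were the lowest 2 of the 6, and the NOTCH1 knockdown pair lay between the control libraries. The RBPJ knockdown mean of 43.4 ± 1.72 (SD, n = 2) stood against 63.3 ± 14.6 in the control (SD, n = 2), a log2 fold change of -0.52 ± 0.29 (SE; 95% interval -1.15 to 0.12; limma, adjusted p = 0.983). Without replicate 2 of the control it was -0.28. Between the knockdowns the log2 difference was 0.60 (95% interval -0.03 to 1.24; limma, adjusted p = 0.999). That was the largest of the 24 differences in size. In the NOTCH1 knockdown against the control it was 0.09 (95% interval -0.55 to 0.72). SOCS3 and LIFR, with fewer reads than IL6R and STAT3, also had wider intervals; the part of read number in that was not tested.

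**Figure D2:**
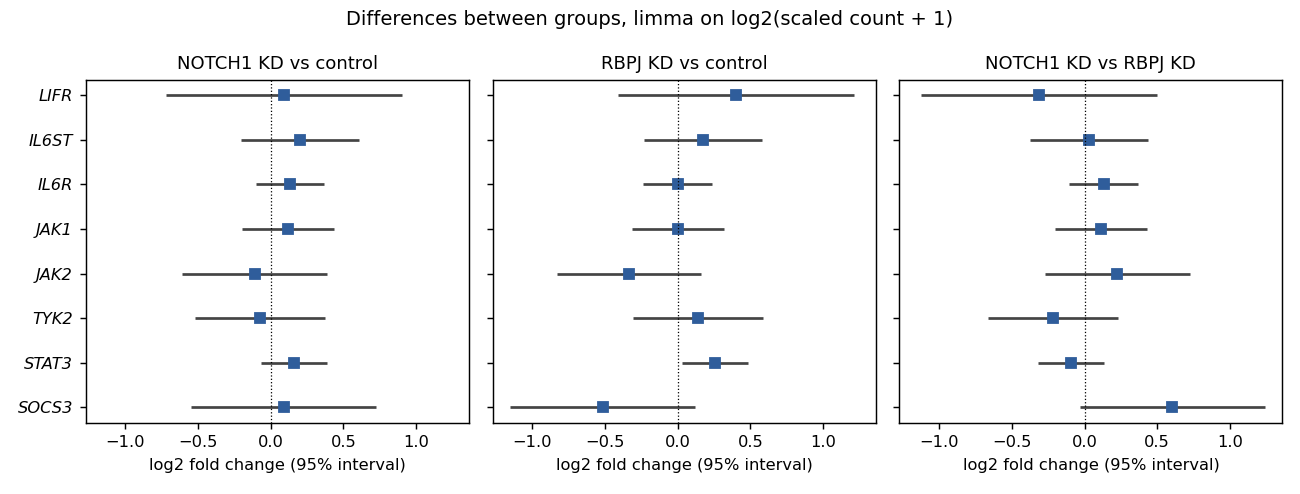
Log2 fold change (x axis) of each gene (y axis) in the NOTCH1 knockdown against the control, the RBPJ knockdown against the control and the NOTCH1 against the RBPJ knockdown; squares are limma estimates and lines their 95% intervals, with the dotted line at 0. The STAT3 interval in the RBPJ knockdown, from 0.03 to 0.48, is the single interval that leaves out 0, before adjustment for the number of genes tested.

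The order of the group means differed from gene to gene. STAT3 and LIFR were highest in the RBPJ knockdown and lowest in the control, TYK2 was highest in the RBPJ knockdown and lowest in the NOTCH1 knockdown, and JAK2 was highest in the control and lowest in the RBPJ knockdown. IL6ST and JAK1 were highest in the NOTCH1 knockdown and lowest in the control, IL6R and SOCS3 highest in the NOTCH1 knockdown and lowest in the RBPJ knockdown. In STAT3 and SOCS3 the largest fold between group means, 1.19 and 1.53, exceeded the largest fold between replicates, 1.13 and 1.39. In the other 6 genes it did not, and over all genes with no library at 0 the share where it did was 25.8%. Neighbours in the order whose libraries did not overlap were the NOTCH1 and RBPJ knockdowns in LIFR, JAK2 and STAT3, the NOTCH1 knockdown and the control in STAT3, and the RBPJ knockdown and the control in SOCS3. All other neighbours overlapped, and none of these differences passed the test.

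Counted by sign, 6 of the 8 genes were higher and 2 lower in the NOTCH1 knockdown than in the control, where 51.1% of all genes were higher. Their median log2 fold change was 0.10, and that of all genes tested was 0.0059. In the RBPJ knockdown 6 were higher and 2 lower, where 49.7% of all genes were higher, with medians of 0.07 for the 8 genes and -0.0018 for all genes. Libraries of the NOTCH1 knockdown and the control did not overlap in 1 gene, STAT3, and this held for 35.9% of all genes. Libraries of the RBPJ knockdown and the control did not overlap in 3 genes, STAT3 above and JAK2 and SOCS3 below, where the share of all genes was 32.1%. Between the knockdowns 6 genes did not overlap, IL6R, JAK2 and SOCS3 with the NOTCH1 knockdown above and LIFR, TYK2 and STAT3 with it below, and the share of all genes was 33%. The first of these 3 counts is under the share of all genes, the second near it and the third over it, although no gene of the third passed the test.

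Much of the variation of the 8 genes lay between libraries of a group. Replicate 2 of the control was the lowest of the 6 libraries in LIFR, IL6ST, IL6R, JAK1 and TYK2 and the highest in JAK2 and SOCS3. It was thus at an extreme in 7 of the 8 genes, while it was lowest in 17.5% and highest in 17% of all genes. Replicate 1 of the NOTCH1 knockdown was highest in IL6ST, IL6R and JAK1, and it was highest in 20.1% of all genes. IL6ST, IL6R, JAK1 and TYK2 were higher in replicate 1 than in replicate 2 of every group, which held for 19.5% of all genes, and JAK2 was higher in replicate 2 of every group, which held for 18.2%. These counts were looked for after the values had been seen. Nothing in the labels says that equal replicate numbers share an oocyte collection or a day.

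**Figure D3:**
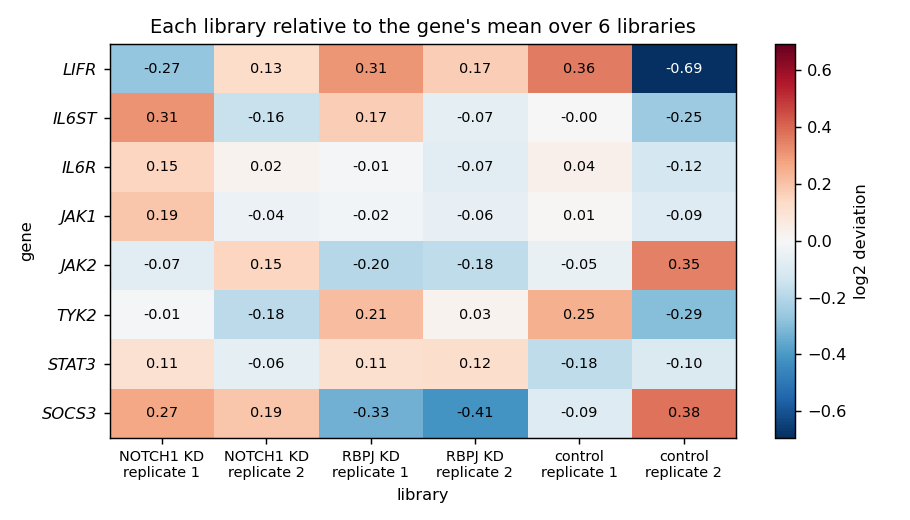
Log2(scaled count + 1) of each gene (rows) in each library (columns) minus the gene's mean over the 6 libraries, as colour and number. Replicate 2 of the control stands out, from -0.69 in LIFR to 0.38 in SOCS3, and both RBPJ knockdown libraries are low in SOCS3, at -0.33 and -0.41.

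Of the cytokines that use these receptors, IL6 had reads in every library and LIF lay at or near 0. IL6 had 197 and 224 scaled counts in the NOTCH1 knockdown, 222 and 243 in the RBPJ knockdown, and 261 and 252 in the control. All 4 knockdown libraries lay below both control libraries, with log2 fold changes of -0.29 in the NOTCH1 knockdown (standard error 0.17; limma, adjusted p = 0.761) and -0.15 in the RBPJ knockdown (standard error 0.17; limma, adjusted p = 0.989). LIF was listed at 0 in both NOTCH1 knockdown libraries, at 3.08 and 0 in the RBPJ knockdown, and at 1.06 and 1.09 in the control, too low to compare. CNTF and EBI3, the genes of ciliary neurotrophic factor and of an interleukin 27 subunit, also had means below 10, and IL11 and OSM were not analysed here.

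CLCF1, the gene of another cytokine of the IL6 family, had 43.7 and 53.6 in the NOTCH1 knockdown, 40.0 and 55.2 in the RBPJ knockdown, and 34.7 and 64.0 in the control, with all pairs overlapping. The cardiotrophin gene CTF1 had log2 fold changes of 0.67 and 0.30 in the NOTCH1 and RBPJ knockdowns, and IL27, a subunit of interleukin 27, had 0.28 and 0.09; none passed (limma, adjusted p = 0.836 to 0.995).

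Of the rest of the pathway 85 genes were tested, grouped by role, and 0 passed in any comparison (limma). At an unadjusted p below 0.05 lay 8 of the 85 in the NOTCH1 knockdown, 4 in the RBPJ knockdown and 2 between the knockdowns, shares of 9.4%, 4.7% and 2.4% against 7.29%, 4.34% and 3.64% of all genes. Of 10 tested genes of other cytokine receptors, 5 were higher and 5 lower by sign in the NOTCH1 knockdown (median log2 fold change -0.0024) and 7 higher and 3 lower in the RBPJ knockdown (median 0.06). IL2RG, the common gamma chain of several interleukin receptors, had 304 and 550 in the NOTCH1 knockdown, 584 and 742 in the RBPJ knockdown, and 395 and 575 in the control. IL12RB1 had a log2 fold change of -0.26 and IL10RB 0.23 in the NOTCH1 knockdown, and CNTFR, the receptor of ciliary neurotrophic factor, had 0.39 in the RBPJ knockdown.

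Of 6 tested genes among JAK3 and the other STATs, 3 were higher and 3 lower by sign in each knockdown, with medians of -0.05 in the NOTCH1 knockdown and 0.01 in the RBPJ knockdown. STAT4, a low transcript whose protein serves interleukin 12 signalling, had 3.07 and 6.46 in the NOTCH1 knockdown, 7.69 and 9.24 in the RBPJ knockdown, and 22.2 and 18.5 in the control. These are log2 fold changes of -1.95 and -1.17 (standard error 0.59 each, limma adjusted p = 0.473 and 0.983). All 4 knockdown libraries lay below both control libraries. STAT4 was tested because its mean over all libraries, 11.2, passed the minimum mean for testing. Only the control mean, 20.4, lay above that minimum, while the NOTCH1 and RBPJ knockdown means were 4.76 and 8.46. The fall and the lack of overlap thus come from a gene kept for testing by its control values. STAT2, which acts downstream of interferon, had 339 and 364 in the NOTCH1 knockdown, 346 and 408 in the RBPJ knockdown, and 412 and 421 in the control.

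Of 16 tested inhibitors, 8 were higher and 8 lower by sign in the NOTCH1 knockdown (median 0.03) and 6 higher and 10 lower in the RBPJ knockdown (median -0.02). SOCS1, which binds and blocks the JAKs directly, had 217 and 220 in the NOTCH1 knockdown, 118 and 222 in the RBPJ knockdown, and 129 and 150 in the control. The NOTCH1 knockdown pair lay above both control libraries, with a log2 fold change of 0.64 (standard error 0.26; limma, adjusted p = 0.631). SOCS4 had a log2 fold change of -0.24 there. In the RBPJ knockdown SOCS2 had -0.22 and PIAS4, a SUMO ligase that restrains STATs, 0.17.

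Of 20 tested adaptors and STAT3 cofactors, 11 were higher and 9 lower by sign in the NOTCH1 knockdown (median 0.05) and 10 higher and 10 lower in the RBPJ knockdown (median -0.01). STAM, an endosomal adaptor that binds JAKs, had 144 and 163 in the NOTCH1 knockdown and 209 and 211 in the control, and CDK9, a kinase of transcription elongation, had 3819 and 3756 in the NOTCH1 knockdown and 3197 and 3549 in the control. In the RBPJ knockdown YES1, a SRC family kinase that LIF activates in mouse stem cells, had a log2 fold change of -0.28 and the adaptor SHC1 0.26.

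Of 29 tested STAT3 target genes, 18 were higher and 11 lower by sign in the NOTCH1 knockdown (median 0.09) and 19 higher and 10 lower in the RBPJ knockdown (median 0.07). A2M, a protease inhibitor of plasma that STAT3 induces in rat liver, had 234 and 253 in the NOTCH1 knockdown, 249 and 323 in the RBPJ knockdown, and 148 and 140 in the control. Both knockdown pairs lay above both control libraries, with log2 fold changes of 0.75 and 0.97 (standard error 0.19 each; limma, adjusted p = 0.368 and 0.528). BCL2L1, which protects from apoptosis, had 2024 and 1869 in the NOTCH1 knockdown, 1882 and 1874 in the RBPJ knockdown, and 1565 and 1600 in the control. MYC, a regulator of growth and the cell cycle, had 61.2 and 46.5 in the NOTCH1 knockdown, 137 and 102 in the RBPJ knockdown, and 93.0 and 115 in the control, with a log2 fold change of -0.94 in the NOTCH1 knockdown (limma, adjusted p = 0.461).

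**Figure D4:**
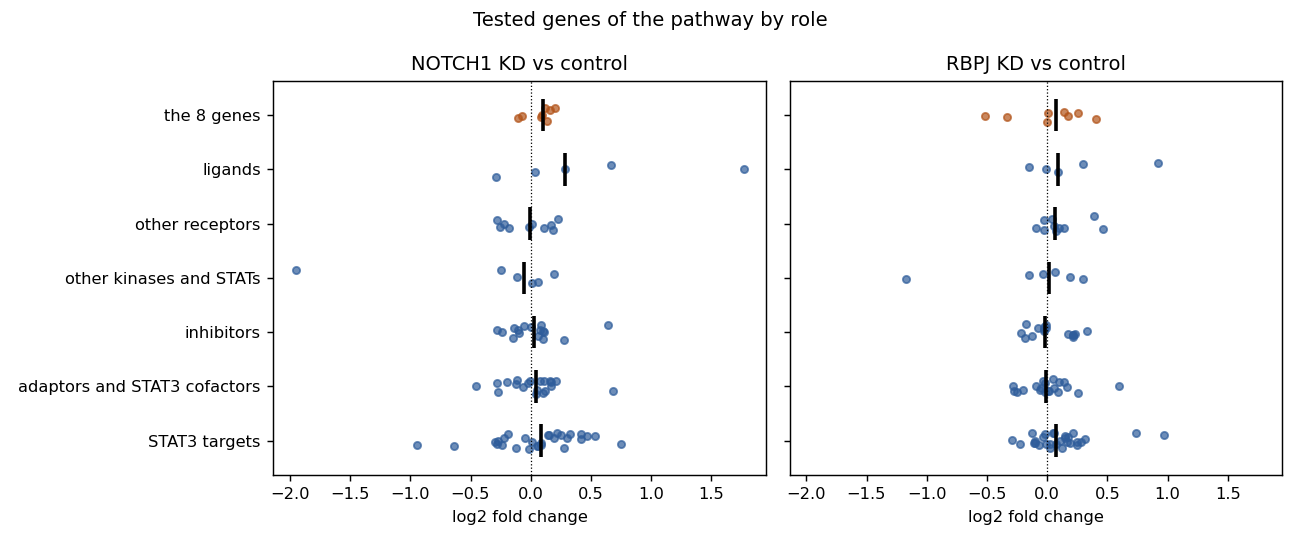
Log2 fold change (x axis) of every tested gene in the NOTCH1 knockdown against the control and the RBPJ knockdown against the control, grouped by role (y axis), with the 8 genes in orange, other genes in blue and a black bar at each group's median; the vertical scatter within a group has no meaning. Medians of the 8 genes were 0.10 and 0.07, and the points farthest below 0 belong to STAT4, a low transcript, at -1.95 and -1.17. The STAT4 means in the NOTCH1 and RBPJ knockdowns, 4.76 and 8.46, were under the minimum mean for testing, which its control mean of 20.4 passed.

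The profile over the 6 libraries was set against that of 8451 other genes with a mean of at least 100 for LIFR and SOCS3, and of 8450 for TYK2, the 3 genes of the 8 with the widest spread. The measure was the root mean square difference between centred log2 profiles, and with 6 libraries many genes come close by this measure. For SOCS3, whose profile had an SD of 0.33, the nearest were PADI2, MARK2 and CNNM4, at differences of 0.08, 0.11 and 0.12. PADI2 had 139 and 132 in the NOTCH1 knockdown, 86.9 and 86.2 in the RBPJ knockdown, and 111 and 131 in the control, with its RBPJ knockdown libraries lowest as in SOCS3. For LIFR (SD 0.41) the nearest were PLXDC2, NUDT11 and TNFRSF10D, at 0.12, 0.13 and 0.16, all 3 lowest in replicate 2 of the control. For TYK2 (SD 0.21) they were MCC, SPRED1 and ARID4B, at 0.04, 0.05 and 0.06, all 3 with the highest and the lowest library in the control, as in TYK2. All these genes were picked for likeness of profile, so the highest and lowest libraries they share follow from the choice.

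Transcripts of other cells were set beside these values, since IL6R, SOCS3 and the JAKs are also made by blood and stromal cells. Blood and immune cell markers summed to 2198 to 3133 in the knockdown libraries and to 2511 and 3526 in the control over 19 genes. HBA, at 976 to 1380, and CSF1R, at 843 to 1829, made up most of that sum. HBB, the gene of the other hemoglobin chain, lay between 1.06 and 8.63, far below HBA, and whether HBA and CSF1R mark blood cells in these embryos was not tested. The leukocyte marker PTPRC lay between 0 and 11.3 and the T cell marker CD3E between 0 and 3.27. Cumulus, granulosa and fibroblast markers summed to 1787 to 2017 in the knockdown libraries and to 1887 and 2051 in the control over 18 genes. Of these 18 genes, 13 had a mean of at least 10, among them PDGFRA at 830 to 995, COL1A1 at 286 to 346 and CYP19A1 at 114 to 172. The cumulus gene HAS2, at 3.07 to 10.9, was among those with a lower mean. Whether these genes mark other cells in these embryos was not tested. The part of blood, immune, cumulus, granulosa and fibroblast cells in the values of the 8 genes was not tested either.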

How the data were processed

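The authors deposited 1 table of normalized abundance with a signal value per gene and library. Most of its low values lay near multiples of a step per library, as read counts divided by a factor would, but not all did. The submitters' processing notes name DESeq2, Salmon 0.14.1 and the build ARS-UCD1.2, without saying what each did; the annotation, and whether strand was used, was not given in the sources used here. Of values below 20, 82.3% to 84.0% lay within 0.1 of a multiple of 1 step per library, too few to recover whole reads, so no count test was run; approximate depths were 9620000 to 13650000 reads. Of 17922 rows, 2551 without a gene name were left out, and 57 repeated symbols kept the row with the higher mean.

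Values were analysed as log2(value + 1), which understates fold changes of low genes. Genes with a mean of at least 10 (12070) were fitted with limma 3.58.1 in R 4.3.3, with group means over all 6 libraries, a variance trend and 3 residual degrees of freedom, and Benjamini-Hochberg adjustment below 0.05. An exact permutation test of 2 against 2 libraries cannot go below p = 0.333 (two-sided) and was not used. No label ties replicates to separate collections, and p-values then measure only how far these libraries differ, which may be technical. The 8 genes and the lists were chosen with earlier results of these data known. All 8 genes are described; of the pathway lists, all ligands, and the 2 tested members with the smallest p per list and knockdown, are named, except items that are not reported here. For the 3 members with the largest SD, the 3 genes (mean of at least 100) nearest in pattern are named. The lists are given by counts and medians, with no set test. Gene overlaps come from a RefSeq table of another assembly, ARS-UCD2.0, so no coordinates are given. Alternatives were other pseudocounts, filters, scalings, variance models, leaving out each library, and a block for the replicate number. Plots were made in Python 3.11.15 with matplotlib 3.10.9.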

Additional observations from a re-analysis of the deposited data

How the results depend on the processing

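None of the 8 genes passed in any of 3 comparisons under any of the 15 alternatives, and the smallest adjusted p was 0.404, for STAT3 in the RBPJ knockdown with a replicate block. SOCS3 and LIFR were not tested at a minimum mean of 100. Of 354 recomputed log2 fold changes of the 8 genes, 335 kept their sign and 19 did not, 18 of these when a library was left out. Of the 24 differences, 12 kept their sign throughout, including STAT3 in all 3 comparisons.

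In the NOTCH1 knockdown against the control, leaving out libraries gave ranges of -0.43 to 0.62 for LIFR, -0.029 to 0.44 for IL6ST, -0.0020 to 0.23 for JAK1, -0.31 to 0.092 for JAK2, -0.35 to 0.20 for TYK2 and -0.15 to 0.32 for SOCS3. In the RBPJ knockdown they were -0.12 to 0.93 for LIFR, -0.079 to 0.081 for IL6R, -0.045 to 0.051 for JAK1 and -0.13 to 0.41 for TYK2, and quantile normalization gave -0.0098 for IL6R. Between the knockdowns they were -0.20 to 0.26 for IL6ST and -0.0054 to 0.23 for JAK1.

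Of all genes, limma called 0 in the NOTCH1 knockdown (880 at an unadjusted p below 0.05), 1 in the RBPJ knockdown and 1 between the knockdowns. Without a variance trend the last 2 counts were 0, with 535 and 538 genes at an unadjusted p below 0.05. Leaving out libraries gave 0 to 1, 1 to 3 and 0 to 3. With the replicate block the counts were 138, 12 and 15. Differences between replicates correlated across genes at 0.17 to 0.21 between groups, and the labels do not say whether equal numbers pair the libraries. The cause of these changes was not tested. The edgeR quasi-likelihood test, planned in case the table held raw counts, was not run. With 2 libraries a group, the intervals above are the limit on what could be seen.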
